A study of Mus musculus with 4 samples.

Results

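Hand1 and Hand2 are the members described here, 2 of the 27998 genes in the deposited tables, found by their symbols (Ensembl identifiers ENSMUSG00000037335 and ENSMUSG00000038193). On the mouse build GRCm38.p6, Hand1 lies on chromosome 11 from 57828713 to 57832147 and Hand2 on chromosome 8 from 57320983 to 57324517. The values come from single-cell RNA sequencing of 4 libraries, 1 per stage, where E8.0 and E8.25 (days of mouse development) are called early and E9.5 and E10.5 late. A row of 4 values is given in the order of these stages. All 4 were made from Swiss Webster embryos that carried Mesp1Cre and the reporter Rosa26-GFPflox/+, with embryos of a stage pooled and living GFP-positive cells sorted. Cre made from the Mesp1 gene marks early mesoderm and its descendants, so the neural crest of the pharyngeal arches, a known site of Hand2, lies mostly outside the sort. The early libraries were made from the upper part of the embryo, and the late ones from heart plus pharyngeal apparatus. Stage, library and dissected region therefore cannot be told apart, and no test between stages was possible.

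HAND1 and HAND2 are related basic helix-loop-helix transcription factors that bind DNA as dimers, often with the widely present E proteins. In the mouse embryo Hand1 is known from extraembryonic mesoderm, lateral mesoderm and the outer curvature of the left ventricle, and Hand2 from the second heart field, the right ventricle, the endocardium, the epicardium and the arches. Embryos that lack either gene die in midgestation with heart defects.

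After filters 21448 cells remained, 2884 to 7525 per library, with medians of 15205 to 35216 UMIs (distinct captured molecules) per cell. They held 32441 Hand1 and 15009 Hand2 UMIs. Each cell was also thinned to 8000 random UMIs, so that calls per cell had the same depth in each library, and 19887 cells reached that depth. Between 16 and 88 cell barcodes were shared by pairs of libraries.

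Hand2 has a divergent neighbour, the long noncoding RNA Hand2os1 (Gm28063 in the tables), whose annotated end lies 124 bases before the Hand2 start. The 250 bases before the Hand2 start (RefSeq, GRCm38.p6, plus strand, chr8:57320733-57320982) are shown. They hold the space between these genes and the adjoining part of Hand2os1. Capitals mark the letters CATCTG, an E-box of the kind HAND and TWIST dimers prefer, and the GATA factor letters TGATAA and AGATAA, searched on both strands.

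Hand2 promoter: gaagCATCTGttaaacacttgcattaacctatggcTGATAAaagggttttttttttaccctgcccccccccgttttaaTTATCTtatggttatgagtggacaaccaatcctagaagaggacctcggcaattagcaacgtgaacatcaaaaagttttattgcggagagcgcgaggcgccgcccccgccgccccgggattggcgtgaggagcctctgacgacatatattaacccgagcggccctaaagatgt

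The E-box begins 246 bases before the start and the GATA letters begin 215 and 172 bases before it, the last on the minus strand. All lie farther than 124 bases from the start, and thus inside the annotated span of Hand2os1. Of 27025 promoters of this length, 14.5% hold CATCTG and 17.0% hold either GATA word, so both are common, and a match is a description of letters only. Transcripts of Hand2os1 were scarce beside those of Hand2, with 33 UMIs in all 4 libraries against 15009.

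Over all cells, Hand1 was at 141, 60.3, 30.1 and 20.4 CPM (UMIs of the gene per 1000000 UMIs of the library). The exact Poisson 95% intervals, which cover counting error only here and below, were 139 to 143, 58.8 to 61.8, 28.8 to 31.4 and 19.6 to 21.2. Hand1 was thus lower in each later library, with a log2 ratio of the last library to the first of -2.79 (95% interval -2.85 to -2.73). Hand2 was at 42.4, 17.9, 35.5 and 32.7 CPM, with intervals of 41.4 to 43.4, 17.1 to 18.7, 34.1 to 36.9 and 31.7 to 33.7. Hand2 showed no steady course, and between the same libraries its log2 ratio was -0.38 (-0.43 to -0.32). Without blood-like and myeloid-like cells this ratio was -0.045 for Hand2 and -2.48 for Hand1. No stage had a second library, so these differences have no replicate check.

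At 8000 UMIs, Hand1 was detected (at least 1 UMI) in 31.1%, 14.4%, 10.9% and 5.76% of cells. Hand2 was detected in 23.6%, 11.0%, 20.4% and 16.6% of cells. In blood-like cells, which should lack both factors and had medians of 27856 to 51086 UMIs before thinning, the Hand1 shares were 3.73% at E8.0, 6.65% at E8.25 and 1.53% at E10.5, and the Hand2 shares lay between 1.11% and 2.58%. The shares over all cells were above these background shares in each of these libraries, by least for Hand1 at E8.25 in relative terms. Without thinning, detection rose to 41.6%, 29.1%, 15.8% and 7.73% of cells for Hand1 and to 39.7%, 25%, 33.8% and 23.9% for Hand2.

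Both genes were found in the same cell more often than the product of their shares. At E8.0, 12.6% of cells had both, against 7.34% from the product, and at E10.5 3.41% against 0.953%. The ratio of the observed share to the product was 1.72, 3.14, 2.15 and 3.57 in the 4 libraries. These cells pool compartments of very different Hand levels, and the ratio was not tested.

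Cells were placed in compartments by lists of 8 marker genes that do not include Hand1 or Hand2, and each compartment is called by its list with "-like". A compartment entered a comparison in a library where it had at least 20 cells. The gates left 37.7% to 51.3% of cells unassigned, and these cells held 42.0% to 72.8% of the Hand1 UMIs and 33.6% to 57.2% of the Hand2 UMIs of their libraries. Many cells lay at the limit of a gate, such as 206 cells at the cardiomyocyte minimum and 423 cells 1 marker short of it, so the compartments are ranges rather than sharp types. Markers that no gate used, Tnnc1, Mybpc3 and Myh7 of the sarcomere, were 115 to 397 times higher in cardiomyocyte-like cells than in the rest of their library, and Tie1, Ramp2 and Sox18 were 12.9 to 55.4 times higher in vascular endothelial-like cells. In endocardial-like cells Tie1, Ramp2 and the endocardial gene Npr3 were 2.09 to 26.9 times higher, with Npr3 only 2.09 times higher at E8.0, so the endocardial label is weak at that stage. Epicardial-like cells had a median of 3 of the 8 cardiomyocyte markers and 3 of the 8 blood markers beside 5 of their own. Blood markers also had a median of 3 in branchiomeric muscle-like, cranial mesenchyme-like, myeloid-like, neural crest-like and epithelium-like cells.

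**Figure D1:**
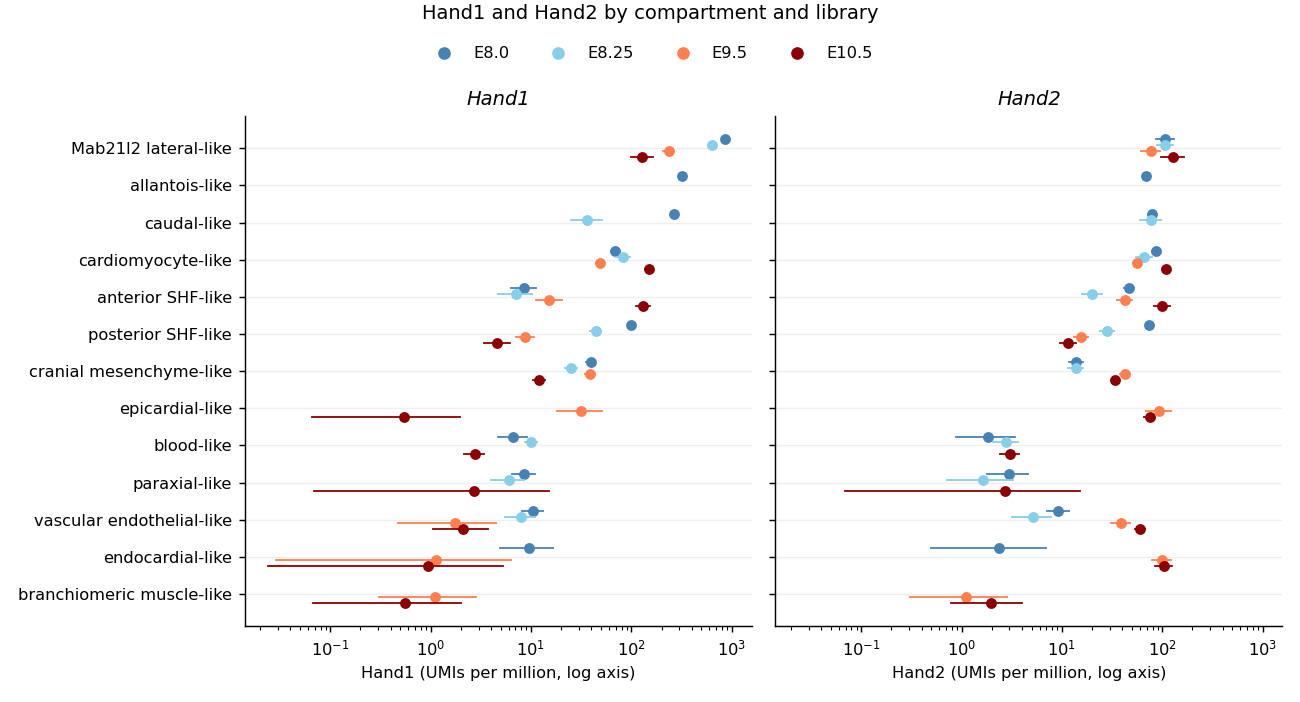
Hand1 (left) and Hand2 (right) in CPM on a log axis, by compartment, with 1 point per library and bars for the exact Poisson 95% interval of the summed count. Hand1 spans from 868 CPM in Mab21l2 lateral mesoderm-like cells at E8.0 to 0.542 CPM in epicardial-like cells at E10.5, while the late endocardial-like and epicardial-like points stay high for Hand2.

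By the mean over libraries, Hand1 was highest in Mab21l2 lateral mesoderm-like cells, defined by Mab21l2 with Bmp4, Msx1, Msx2, Gata4, Tbx20, Alcam and Mab21l1. There it was at 868, 633, 236 and 129 CPM, a mean of 466 ± 344 (SD over libraries, n = 4), and Hand2 was at 107, 107, 76.5 and 127 CPM, a mean of 104 ± 20.8 (SD, n = 4). Hand1 was lower in each later library, whereas Hand2 stayed within a narrow range. These compartments were small, with 27 to 50 cells per library. Against cardiomyocyte-like cells Hand1 was higher by 2.14 on the log2 scale (SE 0.74, adjusted p = 0.0454 by edgeR's quasi-likelihood test with library as a block and Benjamini-Hochberg adjustment over 14277 genes). In single libraries the log2 ratio was 3.65, 2.95, 2.28 and -0.22 (-0.63 to 0.17), so Hand1 was not higher at E10.5. The call of the fit was lost in 6 of 10 alternatives, with values of 1.59 to 2.90. This contrast was added after the data were seen. For Hand2 the same difference was 0.38 (SE 0.57, adjusted p = 0.736). Of all genes tested in this contrast, 15.6% were called.

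Allantois-like cells, the mesoderm that forms the umbilical vessels, were found only at E8.0 in sufficient number (544 cells) and had 323 CPM of Hand1 and 68.8 of Hand2. Caudal-like cells, defined by Cdx and posterior Hox genes, had 264 CPM of Hand1 at E8.0 and 36.2 at E8.25, and 78.9 and 76.6 CPM of Hand2. At E8.0 these compartments together with the Mab21l2 cells formed the upper end of the Hand1 order. The allantois-like cells held 20.1% and the caudal-like cells 19.4% of the Hand1 UMIs in cells of that library that reached 8000 UMIs. Caudal-like cells were 9.64% of cells at E8.0 and 0.80% at E8.25, so the early libraries did not hold the same mix of compartments. What part this has in the lower Hand1 level over all cells at E8.25 was not tested. At E8.0 Hand1 was detected in 80.3% of allantois-like and 68.7% of caudal-like cells at 8000 UMIs.

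In cardiomyocyte-like cells (56 to 446 per library) Hand1 was at 69.1, 82.0, 48.6 and 150 CPM, a mean of 87.5 ± 44.0 (SD, n = 4). Hand2 was at 86.3, 65.5, 55.8 and 109 CPM, a mean of 79.2 ± 23.7 (SD, n = 4). For both genes the E9.5 library was lowest and the E10.5 library highest.

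Anterior second heart field (SHF)-like cells, progenitors of the outflow tract and right ventricle, had 8.47, 7.04, 15.2 and 131 CPM of Hand1. Their Hand2 levels were 46.9, 20.1, 42.3 and 100 CPM. In blood-like cells Hand1 was at 6.66 CPM at E8.0, 10.0 at E8.25 and 2.74 at E10.5, so Hand1 in anterior SHF-like cells was near that background in the early libraries and far above it in the last. Compared with cardiomyocyte-like cells the log2 difference was -1.48 (SE 0.80, adjusted p = 0.179) for Hand1 and -0.80 (SE 0.55, adjusted p = 0.304) for Hand2 in the edgeR fit, where 26.9% of genes were called. Without the E10.5 library Hand1 was lower by 2.83 on the log2 scale and passed the test (adjusted p = 0.0028). With 1 marker more in every gate the difference was -4.21 (adjusted p = 0.000767), a setting that leaves at most 19 anterior SHF-like cells at E10.5, under the minimum of 20, and so changes both the gate and the libraries compared.

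Posterior SHF-like cells, which give rise to atrial and venous parts of the heart and to lung mesoderm, followed another course. Hand1 was at 98.7, 44.2, 8.70 and 4.62 CPM, and Hand2 at 74, 28.3, 15.5 and 11.6 CPM. Both genes were lower in each later library, and at E10.5 Hand1 (95% interval 3.38 to 6.16) was little above the 2.74 CPM (2.17 to 3.41) of blood-like cells of that library. The log2 difference from cardiomyocyte-like cells was -1.62 (SE 0.75, adjusted p = 0.0913) for Hand1 and -1.18 (SE 0.54, adjusted p = 0.0928) for Hand2 by edgeR, and 34.4% of genes were called. At E8.0 the order was the opposite for Hand1, with a log2 ratio to cardiomyocyte-like cells of 0.51 (0.34 to 0.69), and -0.22 (-0.39 to -0.05) for Hand2. Without that library the differences were -2.66 (adjusted p = 0.0182) and -1.97 (adjusted p = 0.00424).

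Endothelial-like cells were divided by detection of Nfatc1, an endocardial transcription factor. Endocardial-like cells (52 to 62 per library) had 2.38 CPM of Hand2 at E8.0 and 99.0 and 104 CPM in the late libraries, and 18 cells at E8.25 were too few. Their Hand1 levels were 9.53, 1.13 and 0.937 CPM. The late endocardial-like cells had 88 and 111 Hand2 UMIs but 1 Hand1 UMI at each stage. Vascular endothelial-like cells had 9.23, 5.11, 38.4 and 60.3 CPM of Hand2 and 10.4, 7.90, 1.75 and 2.10 CPM of Hand1. Blood-like cells had 1.85 to 3.05 CPM of Hand2, so that Hand2 in vascular cells was above this background in each library and by most in the late ones, while late Hand1 in both endothelial compartments was below the background of 2.74 CPM at E10.5. Because the tissue dissected also changed, these early and late cells need not come from the same vessels.

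Compared with cardiomyocyte-like cells, Hand1 was lower in endocardial-like cells by a log2 difference of -4.58 (SE 1.38, adjusted p = 0.0131, edgeR) and in vascular endothelial-like cells by -4.03 (SE 0.90, adjusted p = 0.000593). Hand2 differed by -0.55 (SE 0.65, adjusted p = 0.578) in endocardial-like cells and was lower by -1.66 (SE 0.57, adjusted p = 0.0198) in vascular endothelial-like cells. Calls made up 26.6% of genes in the endocardial contrast and 40.1% in the vascular contrast. Without the E9.5 library the endocardial Hand1 call was lost (-4.50, adjusted p = 0.0571). Without E8.0 or without E8.25 the vascular Hand2 call was lost, with -1.22 (adjusted p = 0.0549) and -1.37 (adjusted p = 0.14).

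Epicardial-like cells, the outer layer of the heart, were present at the last 2 stages, 23 cells and then 151 of them. Hand2 was at 92.8 and 74.7 CPM and Hand1 at 31.5 and 0.542 CPM. Hand1 was thus at the level of 2 UMIs in the larger of these groups, where Hand2 had 276 UMIs.

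Cranial mesenchyme-like cells, defined by Prrx, Twist and Alx genes, had 39.5, 25.1, 38.8 and 12.0 CPM of Hand1 and 13.9, 13.7, 42.8 and 33.6 CPM of Hand2. Hand1 was lowest at E10.5, and the late libraries had the higher Hand2 levels. Against cardiomyocyte-like cells the log2 difference was -1.67 (SE 0.73, adjusted p = 0.0762) for Hand1 and -1.71 (SE 0.55, adjusted p = 0.015) for Hand2 by edgeR, with 35.0% of genes called. Without the E8.25 library the Hand2 difference was -1.59 (adjusted p = 0.0877). This contrast too was added after the data were seen.

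Branchiomeric muscle-like cells, the progenitors of jaw and face muscles marked by Tcf21, Lhx2 and Myf5, had 1.11 and 0.561 CPM of Hand1 and 1.11 and 1.96 CPM of Hand2 at E9.5 and E10.5. These levels lay below those of blood-like cells at E10.5, but rest on 2 to 7 UMIs. Only the Hand1 interval at E10.5 (0.07 to 2.03) lay wholly below that of blood-like cells (2.17 to 3.41). Both genes were lower than in cardiomyocyte-like cells, with log2 differences of -6.33 (SE 1.67, adjusted p = 0.0047) for Hand1 and -6.04 (SE 1.12, adjusted p = 0.000138) for Hand2 in the edgeR fit, where 28.9% of genes were called. Without E9.5, which left only the E10.5 library with enough branchiomeric muscle-like cells, the Hand1 difference was -7.22. Paraxial-like cells had 2.70 to 8.45 CPM of Hand1 and 1.65 to 2.97 CPM of Hand2. Neural crest-like cells at E8.25 (34 cells) had 3.38 and 4.05 CPM of Hand1 and Hand2, and myeloid-like cells at E10.5 (79 cells) had 1.77 and 0.443 CPM.

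By the mean over the libraries in which each was measured, the order of Hand1 was Mab21l2 lateral mesoderm-like, allantois-like, caudal-like, cardiomyocyte-like, anterior SHF-like, posterior SHF-like, cranial mesenchyme-like, epicardial-like, and then blood-like, paraxial-like, vascular, endocardial-like, neural crest-like, myeloid-like and branchiomeric muscle-like cells. These means rest on different stages, since allantois-like cells were measured at E8.0 only, caudal-like cells in the early and epicardial-like cells in the late libraries. At E8.25 caudal-like cells (36.2 CPM) lay below cardiomyocyte-like (82.0) and posterior SHF-like cells (44.2). The anterior SHF-like, posterior SHF-like and cranial mesenchyme-like cells had means of 40.5 ± 60.5, 39.0 ± 43.5 and 28.8 ± 13.0 CPM (SD, n = 4), with overlapping spreads. Within libraries the SHF compartments were not alike. Anterior SHF-like cells had less Hand1 than posterior SHF-like cells at E8.0 (8.47 against 98.7 CPM) and E8.25 (7.04 against 44.2). They had more at E9.5 (15.2 against 8.70) and E10.5 (131 against 4.62). These compartments were not tested against each other. Blood-like, paraxial-like, vascular and endocardial-like cells, at means of 3.86 to 6.47 CPM, also had overlapping spreads. The order of Hand2 began with Mab21l2 lateral mesoderm-like cells (104 CPM), followed by epicardial-like (83.8 ± 12.8, SD, n = 2), cardiomyocyte-like (79.2), caudal-like (77.7 ± 1.61, SD, n = 2), allantois-like (68.8, 1 library) and endocardial-like cells (68.5 ± 57.3, SD, n = 3), which overlapped in range. Anterior SHF-like cells (52.4 ± 34.0), posterior SHF-like cells (32.4 ± 28.7), vascular (28.3 ± 26) and cranial mesenchyme-like cells (26 ± 14.6) followed, each with n = 4 and overlapping its neighbours. Blood-like, paraxial-like, branchiomeric muscle-like, neural crest-like and myeloid-like cells were at the low end of both orders.

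**Figure D2:**
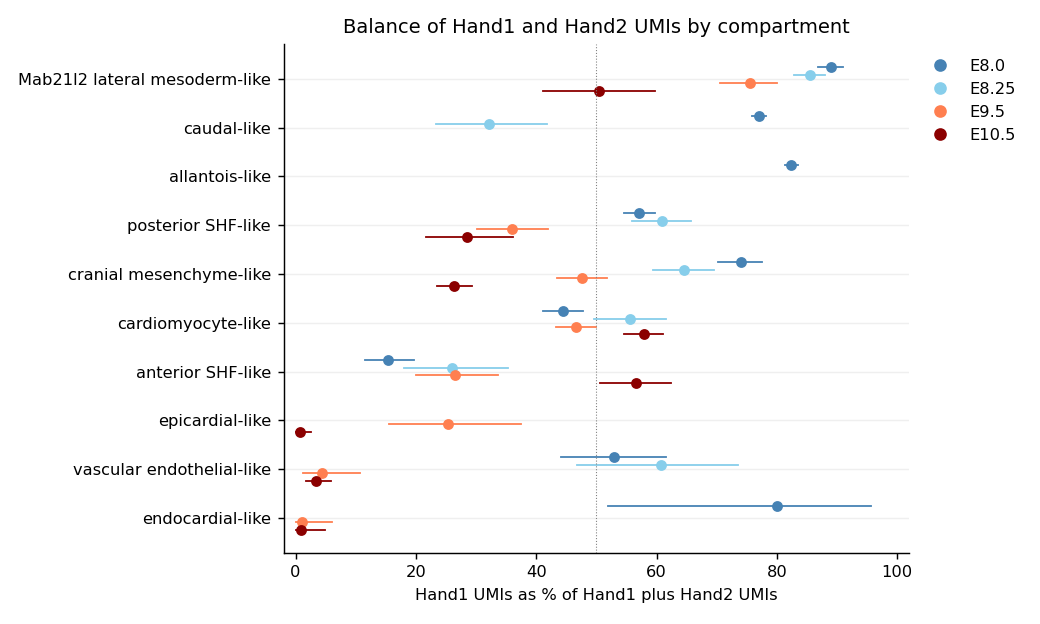
Hand1 UMIs as a percentage of Hand1 plus Hand2 UMIs in each compartment, with 1 point per library and bars for the exact Clopper-Pearson 95% interval. Late endocardial-like cells sit near 1% and Mab21l2 lateral mesoderm-like cells at E8.0 at 89.0%, and the early and late points of the vascular endothelial-like cells lie far apart.

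The balance of the genes was described by the share of Hand1 among all Hand UMIs. The kit reads the 3′ ends of transcripts, and capture may differ between genes, so only the change of this share between compartments and libraries is interpretable. In Mab21l2 lateral mesoderm-like cells the share was 89.0%, 85.5%, 75.5% and 50.4%. In cranial mesenchyme-like cells it was 74%, 64.6%, 47.6% and 26.4%. In both, each later library had a smaller share. Anterior SHF-like cells ran the other way, with 15.3%, 25.9%, 26.4% and 56.6%. Cardiomyocyte-like cells kept a mean of 51.1% ± 6.60 (SD, n = 4), the narrowest spread of any compartment measured in all 4 libraries. The vascular endothelial-like share was 52.9% at E8.0 and 60.7% at E8.25, where neither gene was above 10.4 CPM, and 4.35% and 3.36% at the late stages.

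Cardiomyocyte-like cells were divided further by chamber genes into ventricular-like (Myl2, Myl3, Irx4, Hey2), atrial-like (Nr2f1, Nr2f2, Vsnl1, Kcna5, Stard10, Sln) and outflow-like groups (Rspo3, Sema3c, Tdgf1, Wnt11, Isl1). Hand1 in outflow-like cells was at 36.9, 125 and 521 CPM at E8.0 and the late stages, and in ventricular-like cells at 44.4, 71.6 and 68.9 CPM. In late atrial-like cells it was at 10.8 and 7.46 CPM, and there were too few such cells earlier. Outflow-like cells at E10.5, 50 cells in all, had the highest Hand1 level of any chamber group and held 15.3% of the Hand1 UMIs of that library.

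Hand2 was at 121, 103 and 234 CPM in outflow-like cells at E8.0, E9.5 and E10.5 and at 65.1, 40.6 and 83.2 CPM in ventricular-like cells. In atrial-like cells it was at 54.0 and 50.9 CPM. Hand2 was higher in outflow-like than in ventricular-like cells in 3 of 3 libraries, by a log2 difference of 1.13 (SE 0.22, adjusted p = 0.0317, edgeR), whereas the Hand1 difference of 1.19 (SE 0.45, adjusted p = 0.22) did not pass. In that contrast 2.12% of genes were called. Without the E9.5 library the Hand2 call was lost (1.07, adjusted p = 0.095), and without the E8.0 library Hand1 passed (1.73, adjusted p = 0.0294).

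Atrial-like cells had less Hand1 than ventricular-like cells, by a log2 difference of -3.25 (SE 0.61, adjusted p = 0.0174, edgeR), and the Hand2 difference was -0.28 (SE 0.26, adjusted p = 0.658), with 3.21% of genes called. Hand1 made up 16.7% and 12.8% of Hand UMIs in atrial-like cells at E9.5 and E10.5, against 63.8% and 45.3% in ventricular-like cells. When gates and chambers were set on unthinned counts, the atrial Hand1 difference was -0.97 (adjusted p = 0.734), and at 5000 UMIs it was -3.83 (adjusted p = 0.0289). These settings also change which cells are gated.

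**Figure D3:**
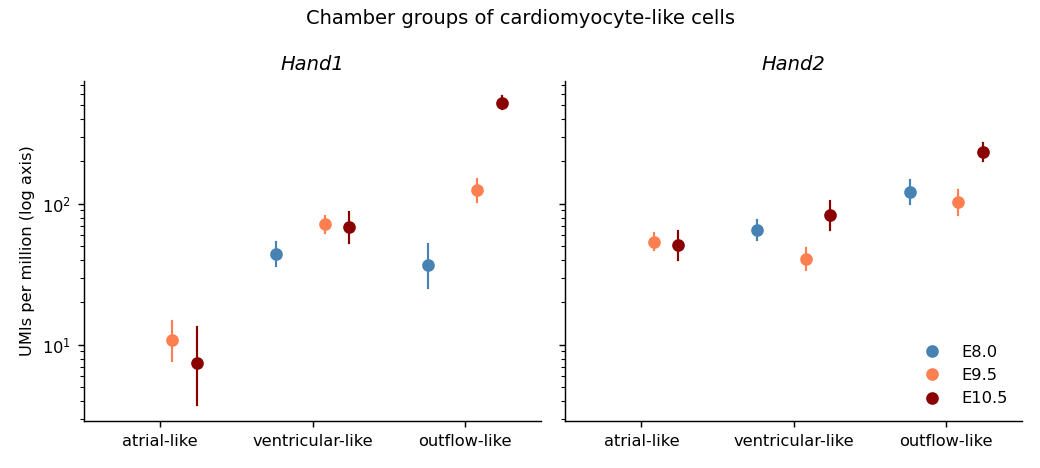
Hand1 (left) and Hand2 (right) in CPM on a log axis in atrial-like, ventricular-like and outflow-like groups of cardiomyocyte-like cells, with 1 point per library and bars for the exact Poisson 95% interval. The outflow-like Hand1 points run from 36.9 at E8.0 to 521 at E10.5, and atrial-like Hand1 is lowest at 7.46 to 10.8.

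Inside cardiomyocyte-like cells the genes shared cells to a different degree in each library. At E8.0, 21.4% of the 285 cells had Hand1, 46% had Hand2 and 5.96% had both, below the 9.84% from the product of the shares. At E10.5, 28.4% of 211 cells had Hand1, 45.5% had Hand2 and 21.8% had both, above the 12.9% from the product. The ratio to the product was 0.606, 0.848, 1.13 and 1.69 in the 4 libraries. In allantois-like cells at E8.0 it was 1.06. These ratios are descriptions and were not tested.

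Cells thinned to 8000 UMIs were then classed as Hand1-only (at least 2 Hand1 and 0 Hand2 UMIs), Hand2-only (the reverse) or double-positive (at least 2 of each). At E8.0 there were 763 Hand1-only, 222 Hand2-only and 217 double-positive cells. At E8.25 there were 125, 41 and 49, at E9.5 95, 152 and 32, and at E10.5 50, 277 and 106. Hand1-only cells were 11.5% of the E8.0 cells and 0.744% of the E10.5 cells, while Hand2-only cells were 1.43% to 4.14% in each library. With 1 or 2 molecules as the limit, a cell that is 0 for a gene can still express it.

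**Figure D4:**
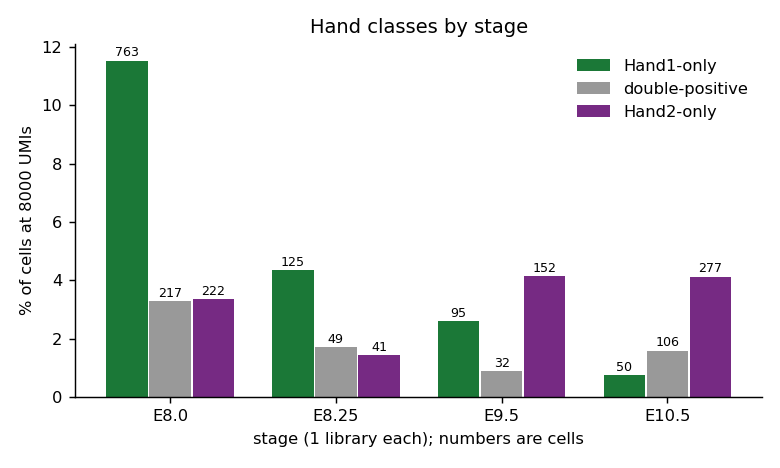
Share of cells at 8000 UMIs in each Hand class, in percent, by stage with 1 library each; the numbers above the bars are cells. Hand1-only cells are the largest class at E8.0 (763 cells) and E8.25, and Hand2-only cells at E9.5 and E10.5 (277 cells).

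The classes were made of different compartments in each library. At E8.0, 25% of Hand1-only cells were allantois-like and 22.1% caudal-like, and 23.9% of Hand2-only cells were cardiomyocyte-like and 15.8% posterior SHF-like. Of all cells of that library, 8.22%, 9.64%, 4.31% and 5.61% were in these compartments. Double-positive cells at E8.0 resembled the Hand1-only class in makeup, with 24.9% allantois-like and 24.9% caudal-like. At E8.25, 80% of Hand1-only cells were unassigned, against 51.3% of all cells. At E10.5, 22% of Hand1-only and 28.3% of double-positive cells were cardiomyocyte-like, against 3.14% of all cells. Hand2-only cells at E10.5 held 15.9% cranial mesenchyme-like, 11.9% vascular endothelial-like, 7.58% epicardial-like and 6.14% endocardial-like cells. Of all cells of that library, these compartments made up 19.2%, 3.87%, 2.25% and 0.922%. The last 3 kinds did not occur among the 106 double-positive cells. They had 11, 2 and 1 Hand1 UMIs in all, and the double-positive class needs at least 2 in a cell, so few could enter it. Differences between classes therefore include differences in makeup, whose part was not tested.

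Summed counts of Hand1-only and Hand2-only cells were compared across the 4 libraries with edgeR, with library as a block. Of 10318 genes, 12 were called at an adjusted p under 0.05, or 0.116%, with 5 higher and 7 lower in Hand1-only cells. The count was 1 without E8.0, 3 without E8.25, 3 without E9.5 and 40 without E10.5, and 49 without cardiomyocyte-like cells. It was 0 without the library block, 0 when cells were thinned to 5000 UMIs and 94 with DESeq2, so the named genes depend on these choices. The p-values rest on how far the difference between classes varied from library to library, and the libraries also differ in stage.

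The genes higher in Hand1-only cells included the lateral mesoderm genes Mab21l2 and Msx2. Mab21l2, which marks lateral mesoderm, was at 22, 89.1, 134 and 70.6 CPM in Hand1-only cells and at 6.41, 20.3, 34.7 and 30.0 CPM in Hand2-only cells. Msx2, a homeobox target of BMP signalling, was at 120, 138, 173 and 80 CPM against 43.9, 64.2, 47.8 and 34.6 CPM. In each library both were higher in the Hand1-only class, by log2 differences of 1.77 (SE 0.16, adjusted p = 0.0225) and 1.42 (SE 0.14, adjusted p = 0.0225) in the edgeR fit. Both genes also belong to the marker list of the Mab21l2 gate, which did not define the classes.

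Phlda2, an imprinted gene that limits placental growth, was at 3916, 1261, 76.2 and 37.6 CPM in Hand1-only cells and 996, 415, 23.7 and 6.79 CPM in Hand2-only cells. Its level differed widely between libraries, but it was higher in Hand1-only cells in 4 of 4, by 1.87 on the log2 scale (SE 0.13, adjusted p = 0.0048 by edgeR). Igfbp2, a binding protein of insulin-like growth factors, was higher by 1.81 (SE 0.21, adjusted p = 0.0417), and the glucose transporter gene Slc2a3 by 1.17 (SE 0.13, adjusted p = 0.0412), both in 4 of 4 libraries.

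Among genes higher in Hand2-only cells, Apoe, which encodes a lipid carrier, was at 442, 331, 660 and 653 CPM in Hand2-only and 144, 116, 148 and 186 CPM in Hand1-only cells. The groups did not overlap, and the log2 difference was -1.77 (SE 0.12, adjusted p = 0.0048, edgeR). Npr3, the natriuretic peptide clearance receptor known from the endocardium, was at 9.72, 16.2, 29.8 and 47.9 CPM in Hand2-only cells and at 2.27 to 10.6 CPM in Hand1-only cells (-1.83, SE 0.19, adjusted p = 0.03). The transcription factors Irx5 and Foxc2 and the vesicle protein gene Vamp5 were also lower in Hand1-only cells in 4 of 4 libraries, by log2 differences of -1.68 (SE 0.20, adjusted p = 0.0417), -1.71 (SE 0.18, adjusted p = 0.03) and -2.08 (SE 0.21, adjusted p = 0.03). Foxc2 moved to -0.51 (adjusted p = 0.658) with 1 UMI as the class limit and -0.77 (adjusted p = 0.739) unthinned, and Vamp5 to -1.08 (adjusted p = 0.108) and -1.07 (adjusted p = 0.509), all by edgeR. Calcrl, an endothelial receptor subunit for adrenomedullin, and Elmo1, a regulator of cell migration, complete the 12 and lie outside the rule for named genes because of their low levels of 19.3 and 11.8 CPM in Hand2-only cells.

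**Figure D5:**
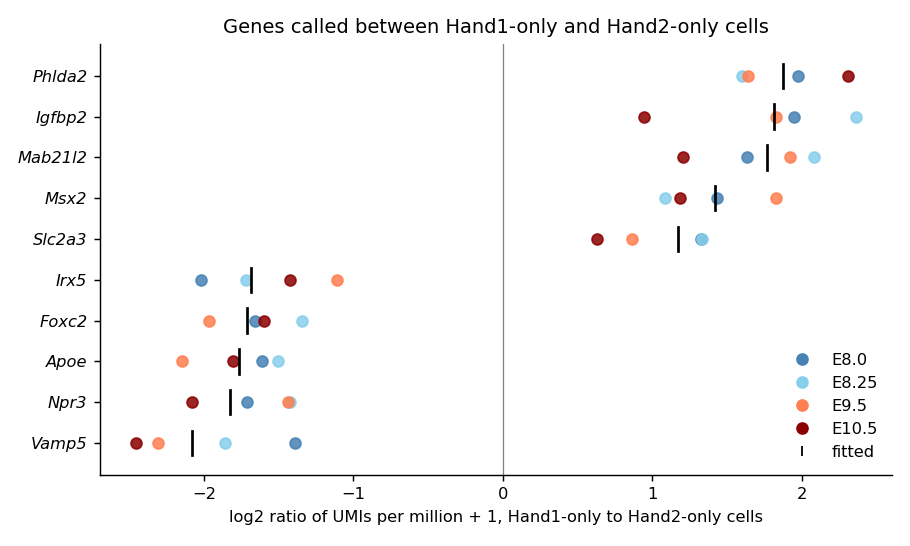
Log2 ratio of CPM plus 1 between Hand1-only and Hand2-only cells for the 10 named genes, with 1 point per library and a bar at the fitted difference. All points of the 5 genes above lie right of 0, and all points of the 5 genes below lie left of 0.

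A plain count of size was made beside the test. Of 5642 genes at 20 CPM or more, 6 (0.106%) were at least 2 times higher in Hand1-only cells in every library and 12 (0.213%) at least 2 times lower. Beyond the called genes the higher ones were the matrix gene Lum, the Wnt inhibitor gene Dkk2 and the connexin gene Gjb5. The lower ones included Icam2, Cdh5 and Plvap of endothelial cells. Cdh5, which encodes VE-cadherin, was at 4.96, 11.5, 23.7 and 47.5 CPM in Hand2-only cells and at no more than 1.19 CPM in Hand1-only cells, with a log2 difference of -3.43 that missed the threshold (adjusted p = 0.0881, edgeR). These names were chosen after their values were seen.

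The genes with the largest difference in a single library changed from stage to stage, again as a description. At E8.0 the leaders of Hand1-only cells were Pitx1 (190 CPM against 30.6 in Hand2-only cells), Col1a1 and Nup62cl, and those of Hand2-only cells were Tdgf1 (89.8 CPM against 2.90), Igfbpl1, Nkx2-5, Mef2c and Fgf8, several of them second heart field genes. At E8.25 Hand1-only cells were led by the matrix gene Postn (86.6 CPM against 2.03), Tdo2 and Wisp1, and Hand2-only cells by Fgf8 (61.5 CPM against 4.07), Igfbpl1, Nkx2-5 and Isl1. At E9.5 Lum (85 CPM against 3.39), Cited1, Postn and Myl2 led the Hand1-only cells and the endothelial genes Klf2 (121 CPM against 3.11), Eng and Plvap the Hand2-only cells. At E10.5 the cardiac muscle genes Myh7 (532 CPM against 23.2), Pln, Smpx, Fbxl22 and Ttn led the Hand1-only cells, and Icam2 (72.6 CPM in Hand2-only cells, listed at 0 in Hand1-only cells) and Hapln1 the Hand2-only cells. Muscle genes therefore led opposite classes at E8.0, where Myl3 and Myh7 were higher in Hand2-only cells (149 and 74.7 CPM against 17.4 and 8.92), and at E10.5.

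Lists of genes around the Hand factors gave few calls between Hand1-only and Hand2-only cells. Of the extraembryonic and lateral mesoderm list 8 of 12 genes were tested, all 8 with a positive difference, 2 were called higher (Phlda2 and Mab21l2), and the median log2 difference was 1.76 beside 0.00 over all genes. Pitx1, a hindlimb and lateral mesoderm factor, differed by 2.78 (adjusted p = 0.0655, edgeR). Of the BMP and endothelin list 11 were tested with 1 called higher (Msx2) and a median of 0.34. Bmp4, a ligand upstream of Hand1 in several tissues, differed by 0.88 (adjusted p = 0.242), and Edn1, the endothelin ligand that acts upstream of Hand2 in the arches, by -2.02 (adjusted p = 0.116).

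No member of the other 12 lists was called in this comparison. Of the dimer partners and inhibitors (Tcf3, Tcf4, Tcf12 and the Id genes) all 8 were tested, with a median of -0.15. The related factors such as Twist1 and Tcf21 had a median of -0.34 over 6 genes, 1 positive and 5 negative. The cardiac regulators had -0.10 over 11, 4 positive and 7 negative, with Gata4 at -0.40 and Nkx2-5 at -1.24 among the negative ones. The left ventricle and chamber list had 0.39 over 6, 4 positive and 2 negative. The outflow tract and right heart list had a median of -0.12 over 8 genes, 4 positive and 4 negative. The sarcomere list had -0.20 over 12, 4 positive and 8 negative. The pharyngeal arch list had -0.80 over 6, all 6 negative, with Tbx1 at -1.66. The posterior heart field list had -0.84 over 8, 3 positive and 5 negative, with Nr2f1 at -1.77. The cell cycle (-0.02), blood (-0.03), endothelial (-0.35, 3 tested) and epithelium and neural crest lists (-0.58, 1 tested) were likewise without calls.

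Double-positive cells differed from Hand1-only cells in 7 of 8943 genes (0.0783%), with 3 higher and 4 lower. Bmp4 was at 156, 340, 158 and 449 CPM in double-positive and 112, 222, 119 and 251 CPM in Hand1-only cells, higher in 4 of 4 libraries by 0.57 on the log2 scale (SE 0.08, adjusted p = 0.0117, edgeR). Postn, which encodes the matrix protein periostin, was at 11.6, 177, 163 and 1.97 CPM against 8.58, 86.6, 59.6 and 0.0 CPM, a log2 difference of 0.99 (SE 0.16, adjusted p = 0.0252). Pdlim3, a Z-line protein gene, was higher by 1.06 (SE 0.15, adjusted p = 0.0163). At 5000 UMIs Postn was at 0.12 (adjusted p = 0.998) and Pdlim3 at 0.43 (adjusted p = 0.998), and unthinned Postn was at 0.53 (adjusted p = 0.86). The Postn call was lost in 7 of 12 alternatives. These differences were small beside the changes of the same genes from library to library.

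The genes lower in double-positive cells were Acta1, Actc1, Ankrd1 and Ptn. The alpha-actin gene Acta1 was at 0.816, 4.91, 48.2 and 5.91 CPM in double-positive and 4.88, 18.8, 139 and 139 CPM in Hand1-only cells, a log2 difference of -2.68 (SE 0.35, adjusted p = 0.0112, edgeR). Actc1, the cardiac alpha-actin gene and a marker of the cardiomyocyte gate, differed by -1.24 (SE 0.21, adjusted p = 0.0292), the stress-responsive muscle gene Ankrd1 by -1.68 (SE 0.27, adjusted p = 0.0252) and the growth factor gene Ptn by -0.47 (SE 0.08, adjusted p = 0.027). All were lower in 4 of 4 libraries. Unthinned, Ankrd1 was at -0.73 (adjusted p = 0.809), and with the 1 UMI limit Acta1 was at -1.48 (adjusted p = 0.139). Of the sarcomere list 1 of 12 genes was called (Actc1), 11 had a negative difference, and the median was -0.81 beside 0.01 over all genes. The outflow tract and right heart list had 7 of 7 positive differences with none called and a median of 0.40. The count of calls was 2 without E8.25 and 12 without E8.0.

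Between double-positive and Hand2-only cells 0 of 9446 genes were called by edgeR (0.0%), while 804 had an unadjusted p under 0.05 and DESeq2 called 77. Without the E10.5 library 44 genes were called, and without E8.25 1 was. By size, of 5761 genes 6 (0.104%) were at least 2 times higher in double-positive cells in every library and 13 (0.226%) at least 2 times lower. Col1a1, a collagen gene, was at 64.7, 96.9, 160 and 159 CPM in double-positive and 10.8, 12.2, 32.4 and 62.7 CPM in Hand2-only cells (log2 difference 2.18, adjusted p = 0.0687). Msx2 was at 138, 199, 213 and 75.5 CPM against 43.9, 64.2, 47.8 and 34.6 CPM. The lower genes included Cdh5, Npr3, Plvap, Vamp5, Nr2f1, Nr2f2 and Tbx1, of which Npr3 and Vamp5 were also called lower in Hand1-only than in Hand2-only cells. These comparisons share the Hand2-only cells. The sarcomere list had 12 of 12 negative differences and a median of -1.02, and the extraembryonic and lateral mesoderm list 7 of 8 positive and a median of 1.82, beside -0.02 over all genes, with no member of any list called.

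Within cardiomyocyte-like cells the classes could be compared in 3 libraries, with 23, 20 and 11 Hand1-only and 53, 34 and 13 Hand2-only cells at E8.0, E9.5 and E10.5. Of 5043 genes 1 was called (0.0198%). It was Igfbp5, a binding protein of insulin-like growth factors, at 44.3, 287 and 281 CPM in Hand1-only and 106, 701 and 842 CPM in Hand2-only cells, a log2 difference of -1.36 (SE 0.15, adjusted p = 0.0149, edgeR). Igfbp5 was lower in Hand1-only cells in 3 of 3 libraries. The count of calls was 2 without E8.0, 17 without E9.5 and 0 without E10.5. Cited1, a transcriptional coregulator known from the early left ventricle, was at 94.9, 407 and 259 CPM against 29.3, 23.8 and 102 CPM and did not pass (log2 difference 2.46, SE 0.42, adjusted p = 0.0922). Of the sarcomere list 12 of 12 differences were positive with a median of 0.57, beside -0.01 over all genes, and none was called.

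The genes most like Hand1 and Hand2 were sought over 42 sums of a compartment in a library, after the mean of each library was subtracted from log2(CPM + 1), among 8708 genes. The sums of a library share its cells, depth and processing, and the correlations are descriptions. Nearest to Hand1 were Phlda2 (Pearson r = 0.864), Msx2 (0.857), Prdm6 (0.828), Vnn1 (0.823) and Bmp4 (0.811). Nearest to Hand2 were the long noncoding RNA Hdnr (0.906), Gata6 (0.881), Gata5 (0.866), Unc5b (0.856) and Phlda2 (0.84). Between Hand1 and Hand2 r was 0.657. Bmp4 and Msx2 belong to the Mab21l2 gate and Phlda2 to the allantois gate.

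Hdnr, called 5033428I22Rik in the tables and also known as handsdown, is a neighbour of Hand2, beginning 7918 bases after its end (chromosome 8 from 57332435 to 57354580). In all cells it was at 3.11, 1.47, 12.6 and 7.75 CPM. The late libraries thus had the higher Hdnr levels, while Hand2 was highest at E8.0. Its highest levels were 43.3 CPM in Mab21l2 lateral mesoderm-like cells at E9.5 and 34.4 in the same compartment at E10.5. In cardiomyocyte-like cells Hdnr was at 19.2, 8.52, 24.1 and 29.7 CPM, and at E8.0 caudal-like cells had 3.40 CPM of Hdnr beside 78.9 CPM of Hand2. Hdnr was tested in the class comparisons and passed in none, with log2 differences of -0.58 (adjusted p = 0.591) between Hand1-only and Hand2-only cells and 0.90 (adjusted p = 0.14, edgeR) between double-positive and Hand1-only cells. On the other side Hand2os1 had 4 to 15 UMIs per library. Next to Hand1, Sap30l, which lies 18098 bases away, was at 12.8 to 25.7 CPM and Larp1, 141271 bases away on the other side, at 23.1 to 115 CPM. Galnt10 (6.05 to 12.1 CPM) and Cnot8 (30.3 to 35.8 CPM) lay farther out, and beyond Hdnr and Hand2os1 Scrg1 had at most 12 UMIs in a library and Fbxo8 was at 14.7 to 16.4 CPM.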

How the data were processed

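Droplet libraries of the 10x Genomics 3′ version 2 kit were aligned by the authors to mm10 with Cell Ranger 3.1.0, per the labels, and deposited as raw UMI counts per gene and called cell, not normalized. Cells with at least 1000 genes and at most 10% mitochondrial UMIs were kept. Scrublet scores (scanpy 1.11.5) were used to remove 0.8% of cells per 1000 as doublets, since Scrublet's own limit marked 0.0247% to 1.58% of cells. Each cell was thinned to 8000 UMIs for gates and Hand classes, which left out 501, 8, 249 and 803 shallower cells from E8.0 to E10.5. Sums used all counts.

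Sums per library and class or compartment were tested with edgeR 4.0.16 in R 4.3.3 (TMM, expression filter, quasi-likelihood, library as a block, Benjamini-Hochberg over all genes tested). Hand1 and Hand2 were left out of the class tests. Compartments were tested in 1 fit of all gated compartments with 24 residual degrees of freedom, and chamber groups in another with 3. Their SEs and p-values thus draw on the spread of every group in the fit, not only of the 2 compared. Tests were checked on simulated counts of 10353 genes for Hand1-only against Hand2-only cells, where 98 of 98 4-fold and 92 of 99 2-fold changes were recovered with 6 false calls. The simulation gave all genes the same dispersion and each changed gene the same fold in every library. It therefore does not show how many changes are recovered where class differences vary between libraries, as they can in the real classes. Named genes were, per class comparison, those of largest change in each direction (10 for the first, 5 otherwise) among called genes with 1 direction in every library and at least 20 CPM, plus the 5 most alike to each member, the lists and the neighbours. Intervals are exact and at 95%. Alternatives used DESeq2 1.42.0, other depths, gates, filters and left-out libraries. The members, lists and tests were chosen with earlier results of these data known. The contrasts of Mab21l2 lateral mesoderm-like and cranial mesenchyme-like cells and the per-library leading genes (at least 50 CPM in 1 class) were added after the data were seen. The result of 1 gene is not reported here.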

Additional observations from a re-analysis of the deposited data

Results flagged for a closer look

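Hand1 in outflow-like against ventricular-like cardiomyocytes had a ratio below 0 at E8.0 and above 0 at E9.5 and E10.5. The log2 ratio was -0.27 at E8.0 (exact 95% counting interval -0.89 to 0.32), 0.80 at E9.5 (0.47 to 1.13) and 2.92 at E10.5 (2.53 to 3.33). The E8.0 interval includes 0, so a lower level at E8.0 is not shown. At E8.25, with 3 outflow-like cells, too few to compare, the levels were 184 and 58.2 CPM. Each stage has 1 library, and the difference between stages was not tested. For Hand2 the ratio was 0.90 at E8.0 and 1.34 and 1.49 in the late libraries.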

How the results depend on the processing

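Among Hand1, Hand2 and the named genes, no alternative reversed the direction of a called difference. Calcrl and Elmo1 are not covered by this statement. For Hand2, 3 differences that were not called changed sign. They went to -0.04 in Mab21l2 lateral mesoderm-like cells at 5000 UMIs, 0.18 in endocardial-like cells without E8.0 and 0.15 in atrial-like against ventricular-like cells without E10.5. The counts of called genes moved most. Between Hand1-only and Hand2-only cells the 12 calls became 94 with DESeq2, 321 with no filter on low counts, 0 without the library block, 0 at 5000 UMIs, 4 with 1 UMI as the limit of a class, 49 without cardiomyocyte-like cells, 30 without allantois-like and caudal-like cells, and 1 to 40 with each library left out. For double-positive against Hand1-only cells the 7 calls became 4 with DESeq2, 141 with no filter, 0 without the block, 21 at 5000 UMIs, 12 unthinned, 21 with the 1 UMI limit and 2 to 12 with each library left out. For double-positive against Hand2-only cells the 0 calls became 77, 259, 9 (unthinned), 24 (1 UMI limit), 8 without doublet removal and 0 to 44 with each library left out, the first pair being DESeq2 and no filter. Within cardiomyocyte-like cells the 1 call became 3, 95, 0 (no block), 0 (5000 UMIs), 57 (unthinned), 6 (1 UMI limit), 10 (no doublet removal) and 0 to 17 with each library left out. The cause of these moves was not tested.

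Against cardiomyocyte-like cells, log2 differences that changed sides of the threshold were, with 1 marker more in every gate, -4.21 (Hand1, anterior SHF), -2.53 (Hand1, posterior SHF), -1.73 (Hand1, cranial mesenchyme) and -1.56 (Hand2, cranial mesenchyme). At 5000 UMIs they were -2.08 (Hand1, posterior SHF), 2.23 (Hand1, Mab21l2 lateral mesoderm) and -1.81 (Hand1, cranial mesenchyme). Unthinned they were -1.96 (Hand1, posterior SHF) and -2.23 (Hand1, cranial mesenchyme). Without the library block they were -1.45 (Hand2, vascular endothelial), 2.40 (Hand1, Mab21l2 lateral mesoderm) and -1.64 (Hand2, cranial mesenchyme), and with DESeq2 1.90 (Hand1, Mab21l2 lateral mesoderm). With each library left out, Hand1 ranged from -2.83 to -1.06 in anterior SHF-like, -2.66 to -0.74 in posterior SHF-like, -7.22 to -5.28 in branchiomeric muscle-like, -6.29 to -3.70 in endocardial-like and 1.59 to 2.90 in Mab21l2 lateral mesoderm-like cells. Hand2 ranged from -1.97 to -0.86 in posterior SHF-like, -2.26 to -1.22 in vascular endothelial-like and -2.22 to -1.40 in cranial mesenchyme-like cells. Outflow-like against ventricular-like cells gave 1.16 for Hand1 with no filter and 0.25 to 1.73 with each library left out, and for Hand2 1.16 without the block, 1.09 unthinned and 1.01 to 1.30. Atrial-like against ventricular-like cells gave -2.82 (no block) and -0.97 (unthinned) for Hand1.

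The stage ratio of CPM was -2.48 for Hand1 and -0.045 for Hand2 without blood-like and myeloid-like cells. The log2 ratio of the share of cells was -2.67 for Hand1 with 2 UMIs as the limit, and for Hand2 -0.37 with that limit and -0.73 unthinned. Hand1 in atrial-like cells made up a mean of 14.8% of Hand UMIs over the libraries with enough cells, 18.3% with 1 marker more, 8.46% at 5000 UMIs, 33.9% unthinned and 18.2% without doublet removal. With 1 marker more the chamber contrasts and the Mab21l2 contrast could not be fitted. No pairing of libraries between stages was possible because each stage has 1 library, so its replicate number pairs nothing. Classes were compared within libraries that held both, with library as a block. Compartments were compared in fits with library as a block, where libraries without the named compartment also entered. With 1 library per stage, depth and the dissected region limit every comparison across stages.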
